A study of Mus musculus with 56 samples.

Results

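PPARα and the fatty acid oxidation genes were followed in livers that had lost miR-122, the most abundant microRNA of the liver. The genes were chosen by name, as Ppara, Cpt1a, Acadm, Acadl, Ehhadh, Fgf21, Pdk4 and Acot1, and all 8 were found among the 21888 gene symbols of the RNA-seq table, each with 1 row. All 8 passed the filter of a mean of at least 1 FPKM (a read level scaled to transcript length and to the size of the library), as did 11354 genes in total. RNA-seq was run on 14 livers of mice with a 129Sv/J background, 1 library per mouse. Uninjected mice with loxP sites around both copies of miR-122 served as day 0 (n = 3). The same floxed line received an rAAV8 vector with Cre under the Ef1a promoter by tail vein and was harvested at day 21 (n = 3), at day 45 (n = 3), and at days 100 and 200 (1 mouse each, joined as the study did). Germline miR-122 knockout mice, whose labels name no vector, formed the last group (n = 3). The Ef1a promoter is not restricted to hepatocytes, no floxed mouse with a vector lacking Cre was analysed here, and no wild-type littermates of the knockouts were analysed here. Cre and the vector therefore cannot be told apart from the loss of miR-122 in the injected mice, and age at harvest is not given.

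PPARα is a nuclear receptor that binds fatty acids, pairs with the retinoid X receptor and turns on genes for burning fat, above all in the fasted liver. Fatty acids enter mitochondria as carnitine esters made by Cpt1a, the step at which entry is controlled, and are then shortened by acyl-CoA dehydrogenases, of which Acadm acts on medium-chain and Acadl on long-chain acyl-CoA. Ehhadh is the bifunctional enzyme of the peroxisomal pathway, and Acot1 is a cytosolic thioesterase that releases free fatty acids from acyl-CoA. Pdk4 phosphorylates and so switches off pyruvate dehydrogenase, which spares glucose when fat is burned, and Fgf21 is a hormone that the liver secretes on fasting and other stress.

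The share of miR-122 among microRNAs in small RNA libraries that carry the same group and replicate names was 73.3%, 59.2% and 66.7% in uninjected mice. It was 12.5%, 13.2% and 8.22% at day 21 and 0.908%, 0.383% and 1.23% at day 45. The small RNA library of day 100 had 4.46% and that of day 200 had 19.1%. The labels do not say that the small RNA and RNA-seq libraries of 1 name came from the same mouse. No small RNA library of the knockouts was analysed here, and the Mir122a row of the RNA-seq table is listed at 0 in all 14 libraries, so it checks nothing. Alb is listed at 0 in all 14 libraries as well, and Serpina1a in 10 of them, which for genes that every hepatocyte uses can be a failed estimate. The 7 hepatocyte markers in the table summed to 21300 to 23400 FPKM at day 0, 18500 to 19400 at day 21, 16200 to 20500 at day 45, 12300 to 18400 in the late mice and 17000 to 26200 in the knockouts, so the ranges of days 21, 45 and later lay below that of day 0. Without Serpina1a the late mice were at 11300 to 18400 and the knockouts at 15700 to 24300 FPKM. Apoa1 held a large part of the day 0 sums, at 11395.5 to 13488.8 FPKM, and was at 6736.57 to 8211.52 at day 21. Its log2 change was −0.72 at day 21, against 0.12 for Ttr, −0.06 for Apob, 0.42 for Cps1 and 0.16 for Hnf4a. In the same order the changes were −0.65, −0.02, −0.21, 0.05 and −0.16 at day 45. In the late mice they were −0.94, −0.34, −0.49, −0.46 and −0.11. The part of the lower sums in the changes below was not tested. Ttr, Apoa1, Apob and Cps1 were found in each library. Transcripts of the Y chromosome (Ddx3y, Eif2s3y, Kdm5d and Uty, summed) were present at 51.1 to 66.8 FPKM in 4 libraries, which are day 0 replicate B, day 21 replicate C, day 45 replicate C and knockout replicate C, and at no more than 0.061 FPKM in the other 10. Both late mice lack them. Knockout replicates A and B also stand apart from C in the length of their transcripts. Relative to day 0, the median log2 ratio was 0.46 and 0.31 among the shortest of 5 equal groups of genes by transcript length, and −0.49 and −0.21 among the longest, against −0.06 and 0.13 in knockout replicate C.

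Markers of other liver cells differed between the groups in the same libraries. Their summed level at day 0, day 45 and days 100 and 200 ranged from 46.1 to 59.2, 405 to 1330 and 1920 to 2920 FPKM for 6 cholangiocyte markers (Krt7, Krt19, Epcam, Sox9, Cftr, Spp1), from 134 to 185, 361 to 589 and 527 to 532 FPKM for 8 stellate and fibroblast markers, and from 229 to 416, 813 to 911 and 838 to 1020 FPKM for 8 macrophage markers. Much of these sums came from 1 gene each, with Spp1 at 88.6% to 98.1%, Dcn at 55.2% to 88.0% and Lyz2 at 28.4% to 70.9% of the sum in a library. Without that gene the ranges were 3.75 to 5.27, 22.6 to 72.5 and 54.6 to 66.6 FPKM for the cholangiocyte markers and 18.3 to 26.6, 87.3 to 246 and 101 to 178 FPKM for the stellate markers. The macrophage markers without Lyz2 ranged from 161 to 298 FPKM at day 0, from 534 to 578 at day 45 and from 297 to 313 in the late mice, which touches the day 0 range. The 8 lymphocyte markers summed to 5.31 to 12.6 FPKM at day 0, to 28.7 to 59.0 FPKM at days 21 and 45 and to 35.1 to 47.8 FPKM in the late mice. The 6 endothelial markers summed to 24.2 to 55.9 FPKM at day 0, 62.4 to 79.0 at day 21 and 70.5 to 84.4 at day 45. They summed to 60.1 to 63.9 FPKM in the late mice and 30.6 to 43.4 in the knockouts. At day 21 the cholangiocyte, stellate and macrophage markers summed to 137 to 203, 278 to 292 and 580 to 765 FPKM, all above day 0. Without Spp1, Dcn and Lyz2 these day 21 sums were 7.36 to 8.43, 47.3 to 67.7 and 409 to 468 FPKM, also above day 0. The knockouts held 552 to 795 FPKM of the cholangiocyte markers (18.7 to 63.0 without Spp1), 293 to 811 FPKM of the macrophage markers, 191 to 284 FPKM of the stellate markers (38.3 to 96.1 without Dcn) and 13.7 to 28.4 FPKM of the lymphocyte markers. The stellate and lymphocyte ranges of the knockouts lay above those of day 0. Of the 6 adipocyte markers only Cidec passed the filter, and Plin1 was listed at 0 throughout. The part of these cells in the values below was not tested, and in a whole liver fewer cells of a type and less RNA per cell cannot be told apart.

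Against day 0, a decrease was called for none of the 8 genes at day 21, for 1 at day 45 (Acadl), for 2 at days 100 and 200 (Acadl and Acot1) and for 3 in the knockouts (Acadm, Acadl and Ehhadh). No increase was called. At an unadjusted p under 0.05, 2 of the 8 were lower at day 21 (Acadl and Ehhadh), 1 at day 45, 5 in the late mice and 4 in the knockouts, where 6.52%, 5.5%, 5.23% and 22.0% of all tested genes were. A gene was called at an adjusted p under 0.05 from limma on log2(FPKM + 1), with Benjamini-Hochberg adjustment over all 11354 genes tested. The share of all tested genes called lower was 1.42% for day 21, 2.99% for day 45, 3.21% for the late mice and 14.5% for the knockouts, and the share called higher was 6.2%, 23.7%, 28.4% and 19.3%. The median log2 change of the 8 genes was −0.59, −0.37, −0.62 and −0.77 in these comparisons, where the median of all tested genes was 0.06, 0.20, 0.31 and 0.02.

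**Figure D1:**
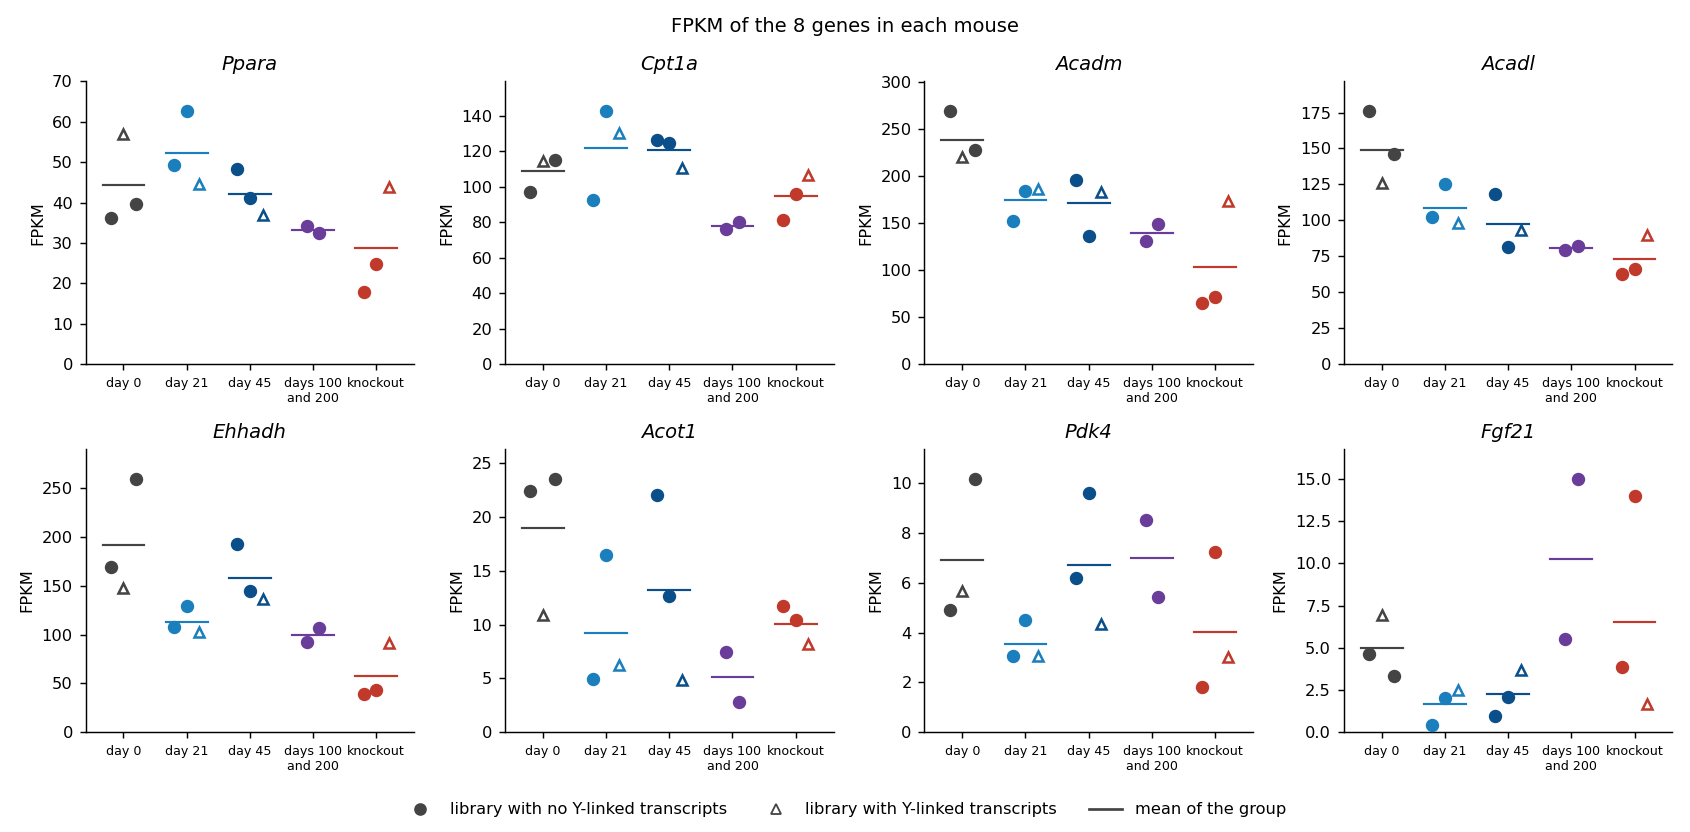
FPKM of each of the 8 genes (y axis, linear from 0) by group (x axis). Each point is 1 mouse, open triangles are the 4 libraries with Y-linked transcripts and lines are group means. Acadm and Acadl lie below all 3 day 0 mice in every later group, while Ppara, Cpt1a and Pdk4 overlap with day 0 at day 45 and Fgf21 is most spread at days 100 and 200 and in the knockouts.

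Ppara itself, at chr15:85565994-85637281 of mm9 on the plus strand with 8 exons in its longest transcript, was at 36.3, 57.0 and 39.7 FPKM at day 0. At day 21 it was at 49.3, 62.6 and 44.7 FPKM, at day 45 at 48.3, 41.1 and 36.8, at day 100 at 34.1, at day 200 at 32.4, and in the knockouts at 17.9, 24.9 and 43.9. The day 21 and day 45 mice overlapped with day 0, both late mice lay just below the lowest day 0 mouse, and 2 of the 3 knockouts lay far below it while knockout replicate C was inside the day 0 range. The log2 change was 0.24 (SE 0.28, adjusted p = 0.693) at day 21, −0.055 (SE 0.28, adjusted p = 0.925) at day 45, −0.38 (SE 0.31, adjusted p = 0.395) at days 100 and 200 and −0.67 (SE 0.28, adjusted p = 0.0772) in the knockouts. Without knockout replicate C the change in the knockouts was −1.01 (adjusted p = 0.00173), and with that library as the only knockout it was 0.012. The order of the means, day 21, day 0, day 45, days 100 and 200 and knockout, had overlapping neighbours except between day 45 and the late mice.

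Cpt1a (chr19:3323301-3385733, plus strand, 19 exons) was measured at 97.0, 114 and 115 FPKM at day 0. It was at 92.6, 142 and 130.3 FPKM at day 21 and at 126, 125 and 111 at day 45. Both late mice were low, with 76.0 FPKM at day 100 and 80.1 at day 200, and the knockouts had 81.4, 96.0 and 107. The groups up to day 45 shared 1 range, and the late mice lay below all day 0 mice. The log2 change was 0.14 (SE 0.18) at day 21, 0.15 (SE 0.18) at day 45, −0.47 (SE 0.20, 95% confidence interval −0.90 to −0.04) at days 100 and 200 and −0.20 (SE 0.18) in the knockouts, with adjusted p = 0.721, 0.608, 0.0913 and 0.379. The late change was called where each library was centred on its median (−0.81, adjusted p = 0.0123) and without knockout replicate C, which enters through the shared spread (adjusted p = 0.0496). The intervals of the day 21 and day 45 changes ran from −0.24 to 0.53 and from −0.23 to 0.53.

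Acadm, the medium-chain dehydrogenase (chr3:153585323-153607396, minus strand, 12 exons), had 269, 221 and 228 FPKM at day 0. After Cre it had 153, 184 and 187 FPKM at day 21 and 196, 137 and 183 at day 45. The mouse of day 100 had 131 FPKM and that of day 200 had 149. The knockouts had 65.1, 71.5 and 174 FPKM. No mouse of any later group reached the lowest day 0 mouse, and knockout replicate C lay among the injected mice, well above the other two knockouts. The knockouts were 2.54-fold lower on the FPKM + 1 scale (log2 change −1.34, SE 0.30, adjusted p = 0.00706), while the changes of the day 21, day 45 and late mice were −0.45, −0.48 and −0.76, with adjusted p = 0.441, 0.283 and 0.107. With knockout replicate C as the only knockout the change was −0.45 (adjusted p = 0.274), with only the compared groups in the fit it was −1.34 (adjusted p = 0.0679), and among libraries without Y-linked transcripts it was −1.84 (adjusted p = 0.000121). With day 0 replicate A as the only day 0 library it was −1.52 (adjusted p = 0.087). Without knockout replicate C, the Acadm changes at day 45 (adjusted p = 0.0285) and at days 100 and 200 (adjusted p = 0.00408) were also called. The late change was called among the libraries without Y-linked transcripts (−0.82, adjusted p = 0.0107) and where libraries were centred on their median (−1.10, adjusted p = 0.0369).

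Acadl, the long-chain dehydrogenase (chr1:66877427-66909841, minus strand, 11 exons), was the only member called lower in 3 of the 4 comparisons with day 0. Its levels were 176, 126 and 146 FPKM at day 0, 102, 125 and 98.1 at day 21, 118, 81.2 and 93.6 at day 45, 79.1 at day 100, 82.2 at day 200, and 63.0, 66.1 and 90.0 in the knockouts. The highest day 21 mouse lay just below the lowest day 0 mouse, with 125.4 against 125.7 FPKM, and all mice of the later groups lay below it. In the order of the means, day 0, day 21, day 45, days 100 and 200 and knockout, each group after day 0 overlapped with the next. The log2 change was −0.45 (SE 0.20, adjusted p = 0.2) at day 21, −0.61 (SE 0.20, adjusted p = 0.0364) at day 45, −0.87 (SE 0.22, adjusted p = 0.00957) at days 100 and 200 and −1.03 (SE 0.20, adjusted p = 0.00317) in the knockouts. These are 1.53-, 1.82- and 2.04-fold decreases for the last 3 groups. The day 45 call rests on single libraries, since the adjusted p was 0.138 without day 0 replicate A, 0.0804 without day 0 replicate C, 0.16 without day 45 replicate B and 0.0925 without day 45 replicate C. That call was also lost when the replicate letter entered the fit as a block. The late call did not hold for day 200 alone (−0.84, adjusted p = 0.0787), and the knockout change was −0.71 (adjusted p = 0.119) with knockout replicate C as the only knockout. Acadl overlaps a further gene model, Gm15793, and the antisense U7, so fragments could be shared with them.

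Ehhadh, the peroxisomal enzyme (chr16:21761358-21787907, minus strand, 7 exons, overlapped by the antisense U6), had 169, 148 and 259 FPKM at day 0. It had 107, 129 and 102 FPKM at day 21, but 193, 145 and 137 at day 45, and then 92.4 at day 100 and 106 at day 200. The knockouts had 39.4, 43.5 and 90.9 FPKM, below every floxed mouse at every time. All mice of days 21, 100 and 200 lay below the day 0 range, and the day 45 mice overlapped with it and lay above all day 21 mice. The change in the knockouts was −1.77 on the log2 scale (SE 0.30, adjusted p = 0.00154), 3.42-fold lower than at day 0. It was −0.73 (SE 0.30, adjusted p = 0.172) at day 21, −0.25 (SE 0.30, adjusted p = 0.613) at day 45 and −0.90 (SE 0.33, adjusted p = 0.0555) at days 100 and 200, and the late change passed the threshold without day 0 replicate B (−1.07, adjusted p = 0.0489), without knockout replicate A (adjusted p = 0.0434) and without knockout replicate C (adjusted p = 0.00741). The day 21 change also passed it without knockout replicate C (adjusted p = 0.0309). With knockout replicate C as the only knockout the change was −1.03 (adjusted p = 0.0746), and with day 0 replicate A as the only day 0 library it was −1.63 (adjusted p = 0.0554).

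Of the 8 genes, Ehhadh alone was called between the knockouts and the day 45 mice, and whether it differed there from the other members was not tested. The knockouts were 2.87-fold lower than the day 45 mice (log2 difference −1.52, SE 0.30, adjusted p = 0.0126). The groups of Ehhadh and of Cpt1a did not overlap, the knockouts being lower, as held for 20.6% of all tested genes. Of all tested genes, 8.23% were called lower in that comparison. At an unadjusted p under 0.05, 3 of the 8 genes (Ppara, Acadm and Ehhadh) and 31.9% of all were lower. The adjusted p was 0.0573 without knockout replicate A, 0.0651 without knockout replicate B, 0.12 with only these groups in the fit, and 0.189 with knockout replicate C as the only knockout (difference −0.78). The other differences from day 45 were −0.86 for Acadm (SE 0.30, adjusted p = 0.0728), −0.61 for Ppara, −0.42 for Acadl, −0.35 for Cpt1a, −0.71 for Pdk4, −0.16 for Acot1 and 0.93 for Fgf21, with adjusted p between 0.0728 and 0.843. Among libraries without Y-linked transcripts, where the 2 knockouts are replicates A and B, Ppara (−1.04), Acadm (−1.25), Acadl (−0.60) and Ehhadh were called lower than at day 45 and Fgf21 (1.79) was called higher, in a fit where 36.0% of all tested genes were called lower and 13.5% higher.

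Between day 45 and day 21 none of the 8 genes was called by limma, and none had an unadjusted p under 0.05, where 1.01% of all tested genes were lower at that p. The differences ran from −0.30 for Ppara to 0.72 for Pdk4 (adjusted p = 0.381), and that of Ehhadh was 0.47 (SE 0.30, adjusted p = 0.469). Ehhadh was the 1 member with all day 45 mice above all day 21 mice, where 27.9% of all tested genes had this order. Over all tested genes 0% were called lower and 0.273% were called higher in this comparison.

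Acot1 (chr12:85350452-85358619, plus strand, 3 exons) has related thioesterase genes with which it shares long identical stretches, which bears on what its value counts. Of the windows of 100 bases along its longest transcript, 32.5% are found letter for letter in a transcript of Acot2, Acot3, Acot4, Acot5 or Acot6, while 0% of the windows of the other 7 genes occur in another gene. Its coding sequence of 1260 bases matches Acot2 at 96.0% of aligned bases, with an identical run of 273 bases, Acot3 at 85.7% (run of 203 bases) and Acot4 at 77.7% (run of 108 bases). Shown is the stretch of 60 coding bases with the most differences from Acot2 among those aligned without gaps to Acot2, Acot3 and Acot4. It is given for the 4 genes from GENCODE vM1 transcripts of the mm9 assembly, with bases that differ from Acot1 in capitals. It starts at coding base 134 of Acot1, 257 of Acot2, 167 of Acot3 and 134 of Acot4.
Acot1: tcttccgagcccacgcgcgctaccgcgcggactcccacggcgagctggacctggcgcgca
Acot2: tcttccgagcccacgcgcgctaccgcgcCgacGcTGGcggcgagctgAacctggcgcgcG
Acot3: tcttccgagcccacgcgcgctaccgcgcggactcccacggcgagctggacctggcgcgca
Acot4: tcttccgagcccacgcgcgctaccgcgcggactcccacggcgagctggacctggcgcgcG
In this stretch Acot2 differs from Acot1 at 7 bases, Acot3 is the same and Acot4 differs at 1. Stretches with gaps were not searched. Fragments from such stretches can be split among these genes, so the Acot1 level is uncertain in all 14 libraries.

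Acot1 was at 22.4, 10.9 and 23.5 FPKM at day 0, at 4.91, 16.5 and 6.20 at day 21, and at 22.1, 12.7 and 4.87 at day 45. It was at 7.46 FPKM at day 100, at 2.80 at day 200, and at 11.7, 10.4 and 8.16 in the knockouts. The late mice lay below all day 0 mice and the other groups overlapped with day 0. The log2 change at days 100 and 200 was −1.74 (SE 0.58, adjusted p = 0.0372), 3.35-fold lower, against −1.07 (SE 0.52, adjusted p = 0.262) at day 21, −0.63 (SE 0.52, adjusted p = 0.436) at day 45 and −0.79 (SE 0.52, adjusted p = 0.244) in the knockouts. The late call passed the threshold in 18 of 27 other settings. Those that left out a day 21, day 45 or knockout mouse kept the estimate and changed only the shared spread. The fits of day 100 and of day 200 alone repeat those without the other late mouse. The adjusted p was 0.0506 with no filter on low values, 0.0508 with a minimum of 5 FPKM and 0.11 with day 0 replicate A as the only day 0 library. The call was also lost without any of day 0 replicate A (adjusted p = 0.101), day 0 replicate C (0.102), day 100 (0.0524) and day 200 (−1.17, adjusted p = 0.273). The library with Y-linked transcripts was the lowest of its group for Acot1 at day 0, at day 45 and in the knockouts but not at day 21.

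**Figure D2:**
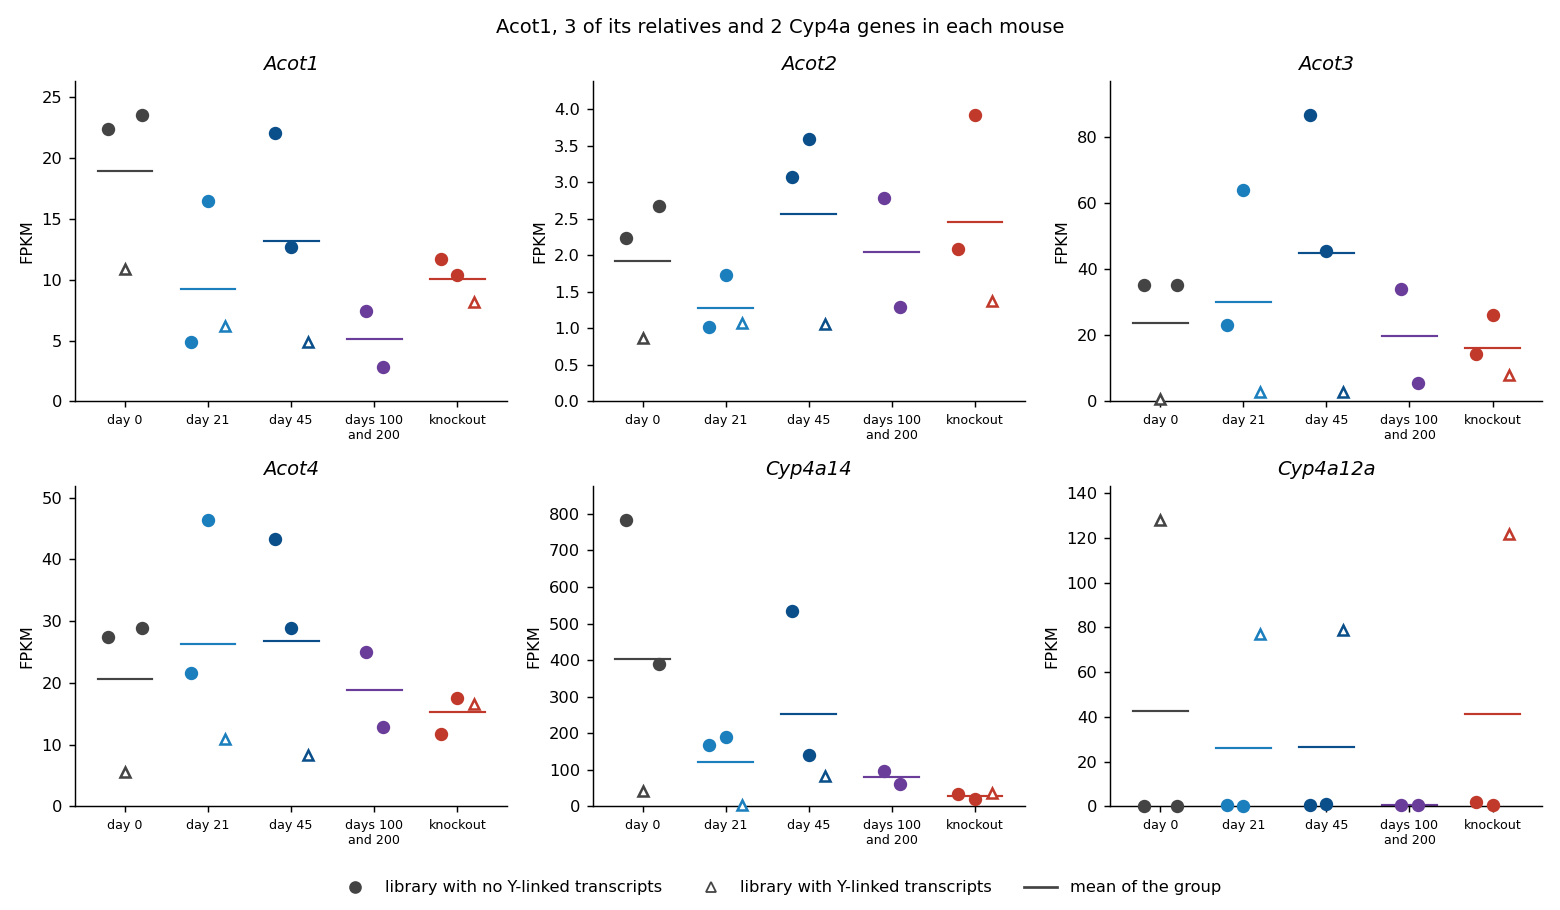
FPKM (y axis, linear from 0) of Acot1, Acot2, Acot3, Acot4, Cyp4a14 and Cyp4a12a by group (x axis), with 1 point per mouse, open triangles for libraries with Y-linked transcripts and lines for group means. Cyp4a12a is at 77.1 to 128 FPKM in the 4 libraries with Y-linked transcripts and at no more than 1.89 FPKM in the others.

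Of the relatives, Acot3 was at 35.1, 0.813 and 35.2 FPKM at day 0 and at 86.6, 45.5 and 2.91 FPKM at day 45. It was at 0.813 to 7.96 FPKM in the 4 libraries with Y-linked transcripts, each the lowest of its group, and at 5.56 to 86.6 FPKM in the other 10. No call was made for Acot2, Acot3 or Acot4 in any comparison with day 0 (adjusted p between 0.628 and 0.947). With a term for Y-linked transcripts the late decrease of Acot1 was −2.04 (adjusted p = 0.00681), and among the libraries without them it was −2.08 (adjusted p = 0.01). The labels do not give the sex of the mice. The 3 relatives, Cyp4a14 and Cyp4a12a were chosen for display after their values were seen.

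Pdk4 (chr6:5433351-5446278, minus strand, 11 exons) was low throughout. It was at 4.92, 5.65 and 10.2 FPKM at day 0, 3.05, 4.52 and 3.08 at day 21, 6.18, 9.63 and 4.34 at day 45, 8.54 at day 100, 5.44 at day 200, and 1.80, 7.22 and 3.03 in the knockouts. The day 21 mice lay below the day 0 mice, and all other groups overlapped with day 0. The log2 change was −0.76 (SE 0.38, adjusted p = 0.279) at day 21, −0.037 at day 45, 0.045 at days 100 and 200 and −0.75 (SE 0.38, adjusted p = 0.139) in the knockouts, which reached −1.18 (adjusted p = 0.0428) without knockout replicate B. The interval of the knockout change ran from −1.58 to 0.08.

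Fgf21 (chr7:52869260-52870860, minus strand, 3 exons) was the most variable member. It was at 4.63, 6.95 and 3.34 FPKM at day 0, 0.425, 2.05 and 2.49 at day 21, and 0.971, 2.09 and 3.68 at day 45. The late mice had 5.54 FPKM at day 100 and 15.0 at day 200, and the knockouts 3.88, 14.0 and 1.67. All day 21 mice lay below the day 0 mice, the day 200 mouse and knockout replicate B were the highest of all 14, and knockout replicate C was lower than any day 0 mouse. None of the changes was called: the log2 change was −1.23 (SE 0.58, adjusted p = 0.249) at day 21, −0.92 (SE 0.58, adjusted p = 0.289) at day 45, 0.82 (SE 0.65, adjusted p = 0.379) at days 100 and 200 and 0.0032 (SE 0.58, adjusted p = 0.997) in the knockouts, where the interval runs from −1.26 to 1.27.

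**Figure D3:**
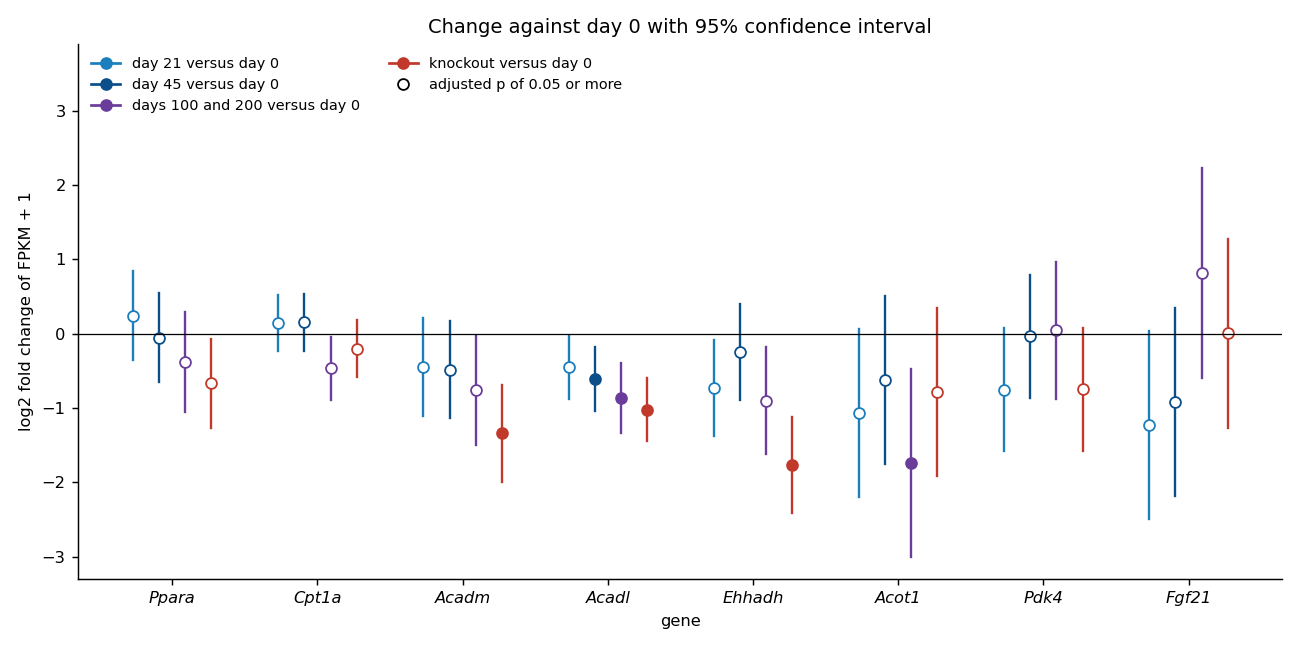
Log2 fold change of FPKM + 1 against day 0 (y axis) for each gene (x axis), with 95% confidence intervals from limma; filled points have an adjusted p under 0.05. The 6 filled points lie between −0.61 and −1.77, and intervals are widest for Acot1 and Fgf21.

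By position alone, 5 of the 8 genes had all day 21 mice below all day 0 mice (Acadm, Acadl, Ehhadh, Fgf21 and Pdk4), where 13.1% of all tested genes did. This held for 2 genes at day 45 (Acadm and Acadl) against 9.37% of all, for 6 at days 100 and 200 (all but Fgf21 and Pdk4) against 11.6%, and for 3 in the knockouts (Acadm, Acadl and Ehhadh) against 13.3%. No member had a later group entirely above day 0, where 25.2%, 40.5%, 52.9% and 21.1% of all tested genes did in the 4 comparisons. The median of all tested genes was up by 0.31 at days 100 and 200 and by 0.20 at day 45. With each library centred on its median, 5 of the 8 were called lower there (Cpt1a, Acadm, Acadl, Ehhadh and Acot1), with 8.75% of all tested genes called lower and 15.7% higher. At day 45 centring left Acadl alone called, with 7.00% of all genes lower and 14.5% higher, and between the knockouts and day 45 it left Ehhadh alone, with 1.93% lower and 1.64% higher. The same 5 genes were called late with only these 2 groups in the fit (4.34% of all genes lower), and 4 of them, without Cpt1a, among libraries without Y-linked transcripts (5.68%).

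For the knockouts, the libraries without Y-linked transcripts gave 4 called members (Ppara, Acadm, Acadl and Ehhadh), with 28.8% of all tested genes called lower. Knockout replicate C as the only knockout gave none, with 1.88% of all genes called lower and 4.03% higher, and day 0 replicate A as the only day 0 library gave 1 (Acadl), with 1.29% called lower and 2.54% higher. In these last fits the single library is assumed to vary like the other groups. With libraries centred within groups of genes of similar transcript length, Acadm (−1.47, adjusted p = 0.00672), Acadl (−1.15, adjusted p = 0.0025) and Ehhadh (−1.80, adjusted p = 0.00125) were called in the knockouts as before.

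The other genes of the pathway were taken from lists of known function. All 15 genes listed for mitochondrial β-oxidation had a log2 change below 0 in each comparison with day 0. Of all genes tested 42.1%, 29.5%, 25.4% and 49.0% did in these comparisons, which share the same 3 day 0 mice. A decrease was called for 2 of the 15 genes at day 21, 5 at day 45, 11 at days 100 and 200 and 9 in the knockouts. No increase was called, and the median was −0.50, −0.52, −0.83 and −0.58. Over all tested genes 1.42%, 2.99%, 3.21% and 14.5% were called lower. The largest decreases at day 45 were those of Etfa (−1.08, SE 0.26, adjusted p = 0.00836) and Etfdh (−1.01, SE 0.31, adjusted p = 0.0293), which carry electrons from the acyl-CoA dehydrogenases to the respiratory chain, and Acadvl (−0.75, SE 0.17, adjusted p = 0.00713), the very-long-chain dehydrogenase. Etfa was at 180.0, 163 and 151 FPKM at day 0 and at 87.4, 67.8 and 77.6 at day 45, so these groups were far apart. With day 0 replicate A as the only day 0 library the number called was 0, 1, 6 and 2, while the share of all genes called lower was 0.0352%, 0.696%, 1.07% and 1.29%, also below that of the fit with 3 day 0 libraries. With knockout replicate C as the only knockout, 3 were called there, where 1.88% of all genes were called lower.

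Of the 15 peroxisomal genes tested, a decrease was called for 1 at day 21, 1 at day 45, 7 at days 100 and 200 and 8 in the knockouts, and an increase for 1 at day 45 and 1 in the knockouts. These counts stand against the same 1.42%, 2.99%, 3.21% and 14.5% of all genes called lower, and against 23.7% called higher at day 45 and 19.3% in the knockouts. The decrease at days 21 and 45 was that of Acaa1b, a peroxisomal thiolase, which went from 454, 550 and 372 FPKM at day 0 to 239, 139.8 and 174 at day 45 (log2 change −1.33, SE 0.28, adjusted p = 0.00435) and fell by 2.11 on the log2 scale in the knockouts. Of the 4 genes of ketone body synthesis 1 was called lower at day 45, and 2 were called lower at days 100 and 200 and in the knockouts, where 2.99%, 3.21% and 14.5% of all genes were.

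**Figure D4:**
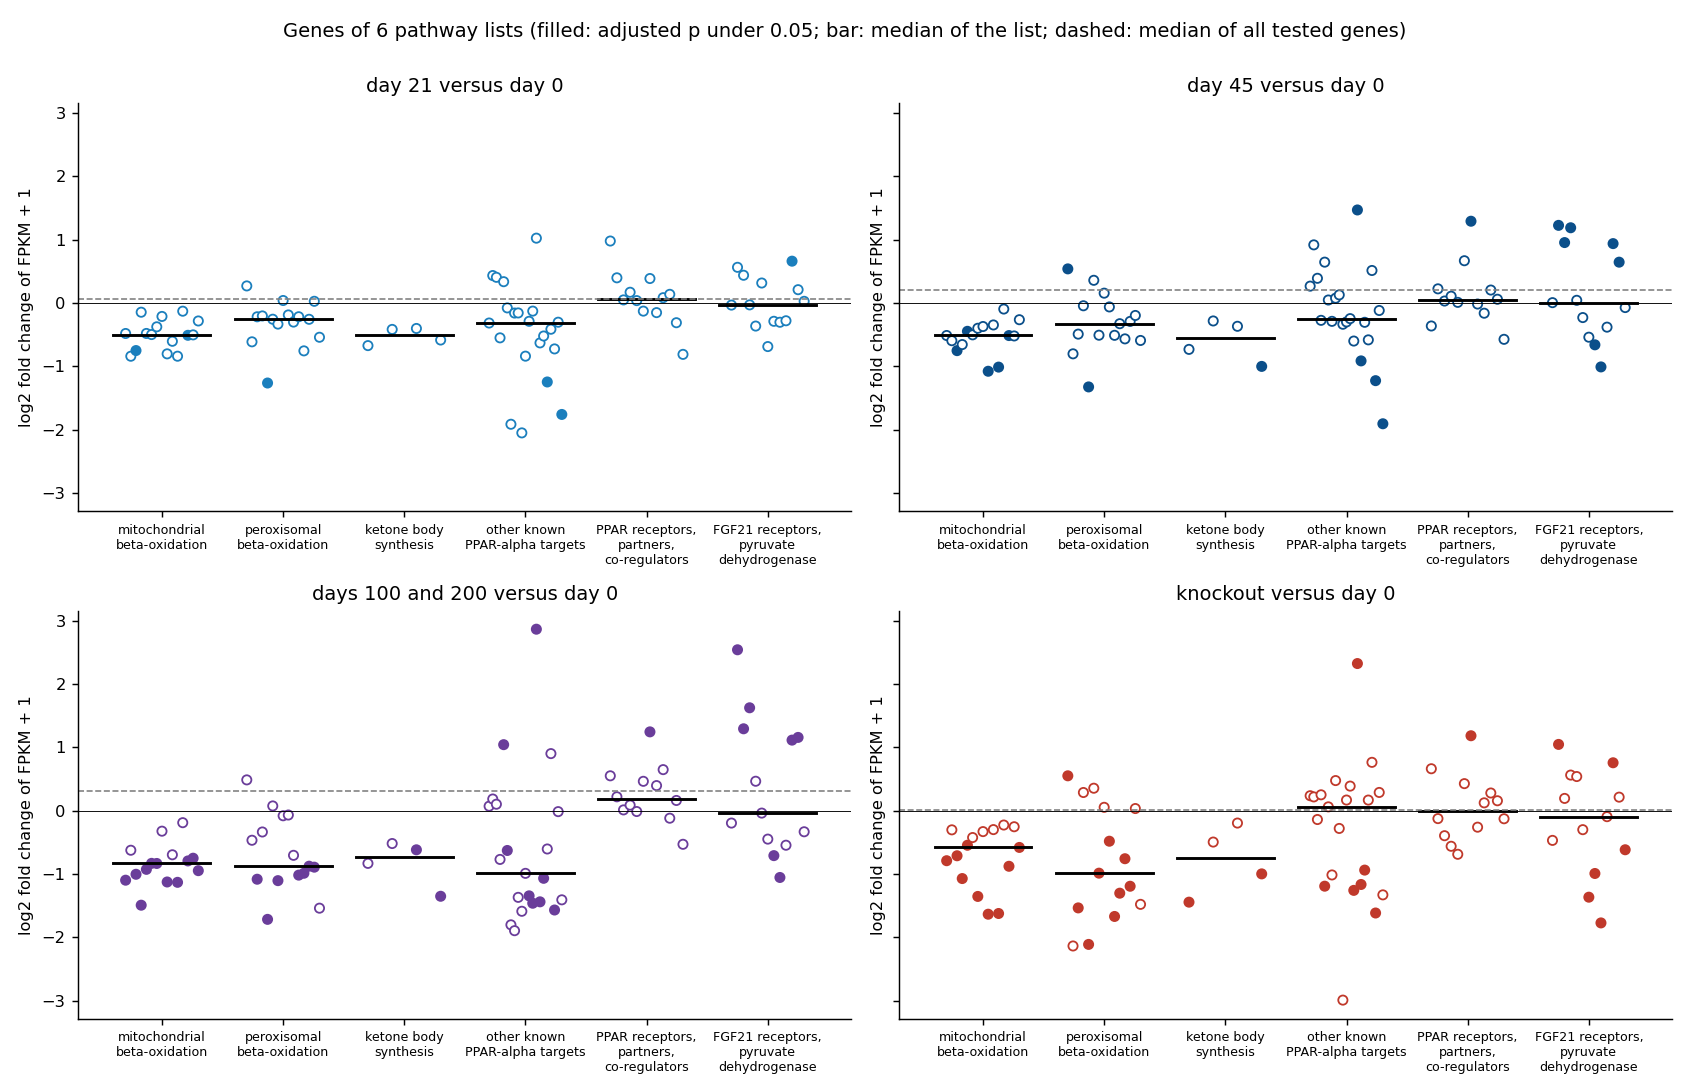
Log2 fold change of FPKM + 1 against day 0 (y axis) for the genes of 6 pathway lists (x axis), 1 point per gene and 1 panel per comparison. Filled points have an adjusted p under 0.05, bars are list medians and the dashed line is the median of all tested genes. All 15 mitochondrial genes lie below 0 in each panel, beside 25.4% to 49.0% of all genes tested, and the median of the PPAR receptors and partners lies between −0.0012 and 0.19.

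Of 21 known PPARα targets tested that are outside these lists, 2, 3, 6 and 5 were called lower at day 21, day 45, days 100 and 200 and in the knockouts, and 0, 1, 2 and 1 were called higher. The shares of all genes were 1.42%, 2.99%, 3.21% and 14.5% lower and 6.2%, 23.7%, 28.4% and 19.3% higher. At day 45 the decreases were those of Vnn1 (−1.91, SE 0.49, adjusted p = 0.0119), a pantetheinase, Slc27a2 (−1.23, SE 0.32, adjusted p = 0.0131), which takes up and activates fatty acids, and Mgll (−0.92, SE 0.28, adjusted p = 0.0267), which cleaves monoacylglycerol. The increase was that of Lpl (1.47, SE 0.42, adjusted p = 0.0219), lipoprotein lipase, which went from 3.82, 5.95 and 5.13 FPKM at day 0 to 6.60, 36.5 and 14.2 at day 45 and to 39.1 and 45.1 FPKM in the late mice. The median of the list was −0.32, −0.25, −0.99 and 0.06 in the 4 comparisons. Cd36, a fatty acid transporter named after its values were seen, was called higher at days 100 and 200 (1.04, adjusted p = 0.0374) and lower in the knockouts (−1.19, adjusted p = 0.0135).

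Among the partners and co-regulators of PPARα, 12 of 13 passed the filter and the only call was an increase of Ppard at day 45 (1.29, SE 0.21, adjusted p = 0.00137), at days 100 and 200 (1.24) and in the knockouts (1.18). Rxra, the retinoid X receptor of the hepatocyte, was at 82.8, 98.6 and 86.5 FPKM at day 0 and at 114, 99.5 and 95.7 at day 45 (log2 change 0.20, adjusted p = 0.366). Of 13 genes that receive the Fgf21 signal or set pyruvate dehydrogenase activity, increases were called for 1, 5, 5 and 2 and decreases for 0, 2, 2 and 4. Of all tested genes, 6.2%, 23.7%, 28.4% and 19.3% were called higher in these comparisons and 1.42%, 2.99%, 3.21% and 14.5% lower. At day 45 the largest increases were those of the FGF receptors Fgfr1 (1.22, adjusted p = 0.00662), Fgfr3 (1.19, adjusted p = 0.0168) and Fgfr2 (0.95, adjusted p = 0.00883), and the decreases those of Pdk1 (−1.01, adjusted p = 0.0112), a sister kinase of Pdk4, and Pdhb (−0.66, adjusted p = 0.0388), a subunit of pyruvate dehydrogenase. Klb, the co-receptor that Fgf21 needs, had a change of −0.23 (adjusted p = 0.631). At day 45 all tested cholangiocyte (5), stellate (8), macrophage (8) and lymphocyte (7) markers and 2 of 6 endothelial markers were called higher too, and their part in these increases was not tested.

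PPARα and its targets vary with feeding and with the hour of the day, and neither is given. Of 13 clock genes tested, 4, 5, 5 and 4 were called higher in the 4 comparisons with day 0, and 3 were called lower in the knockouts, beside the same shares of all tested genes (6.2%, 23.7%, 28.4% and 19.3% higher, 14.5% lower in the knockouts). At day 45 the increases were those of Dbp (2.61, adjusted p = 0.0123), Per3 (1.57), Bhlhe41 (1.19), Tef (1.18) and Per2 (1.10). The day 0 mice did not agree among themselves. Dbp was at 38.5, 5.99 and 2.60 FPKM in day 0 replicates A, B and C, against 23.6 to 82.6 FPKM in the other 11 mice, and Arntl, which peaks opposite to Dbp, was at 1.82, 6.36 and 7.64 FPKM against 0.812 to 3.83. With day 0 replicate A as the only day 0 library 1 of the 13 clock genes was called higher at day 45, and 6.4% of all tested genes were, so both counts were lower than with 3 day 0 libraries. Of the 8 genes induced by fasting 1 was called at day 45, G6pc (−2.59, SE 0.59, adjusted p = 0.00654), the last enzyme of glucose release, which was at 228, 463 and 496 FPKM at day 0 and at 80.4, 54.9 and 52.0 at day 45. Of the 7 feeding-induced genes tested 1 was called lower at day 45, Acaca (−0.66, SE 0.21, adjusted p = 0.0305), which makes malonyl-CoA, the inhibitor of Cpt1a, and 4 were called lower in the knockouts (2.99% and 14.5% of all genes). The part of hour and feeding state in the changes of the 8 genes was not tested.

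Across the 14 livers, Acadm, Acadl and Ehhadh went together most. The correlation of log2(FPKM + 1) was 0.90 between Acadm and Ehhadh, 0.89 between Acadm and Acadl and 0.82 between Acadl and Ehhadh, and that of Ppara with the 3 genes was 0.76, 0.63 and 0.69. Fgf21 had a negative correlation with each of them and with Ppara (−0.28 to −0.49), and Pdk4 had 0.48 with Ehhadh and 0.20 or less with Acadm, Acadl and Ppara. These values describe 14 mice that share groups, and knockout replicates A and B were the 2 lowest of the 14 for Ppara, Acadm, Acadl and Ehhadh. The tested genes most like each member over the 14 livers were Kif21a, Sec24a and Ibtk for Ppara (r = 0.96 for the first), Abhd6, Aqp9 and Ptplad1 for Cpt1a (0.83), Ugt2a3, Bbox1 and Hibch for Acadm (0.98), and Aldh9a1, 9530008L14Rik and Etfa for Acadl (0.95). They were Gtf2e1 and Hsdl2 for Ehhadh (0.95), Htra2, Plekhf1 and Sdf2 for Fgf21 (0.86), Pank4, BC031781 and Aplp2 for Pdk4 (0.81), and Pctp, Paqr9 and Igf1 for Acot1 (0.83).

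PPARα binds as a pair with the retinoid X receptor to repeats of the hexamer AGGTCA, so the promoters of the 8 genes were searched for it. RefSeq promoters of GRCm38.p6, from 250 bases before to 50 after the start site, were found for all 8 genes. Searched on both strands, AGGTCA was in 2 of the 8 and in 16.3% of all 32851 promoters, and a pair of AGGNCA hexamers in 1 direction with 1 base between them, which can overlap AGGTCA, was in none of the 8 and in 0.381% of all. The 2 promoters with the hexamer are shown over 60 bases with it in capitals, on the strand opposite to the gene in both, so that it reads TGACCT. The stretches lie at chr19:3323180-3323239 (plus strand) for Cpt1a, with the hexamer at −94 from the start site, and at chr3:153944834-153944893 (minus strand) for Acadm, with the hexamer at −249.
Cpt1a: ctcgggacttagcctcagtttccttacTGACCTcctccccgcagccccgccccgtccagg
Acadm: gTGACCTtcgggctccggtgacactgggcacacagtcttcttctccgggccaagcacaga
These are reference letters and not those of the 129Sv/J mice, and sites outside the window were not searched.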

How the data were processed

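RNA was extracted from 14 mouse livers with Trizol and poly-A purified, and paired reads were sequenced. The authors aligned them to mm9 with TopHat and made the deposited FPKM with Cufflinks 2.2.1 (quartile normalisation), with ribosomal, snoRNA and mitochondrial sequences removed. FPKM hold no fragment numbers, so depth is unknown and no count model was fitted. The deposited small RNA RPM (Bowtie 0.12.7), to which the authors had added 1, gave the miR-122 share after that 1 was subtracted. The RNA-seq table has 22308 rows, and the values of 224 symbols that fill several rows were added up. Of the small RNA table, 11 columns were used.

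limma 3.58.1 in R 4.3.3 (lmFit, contrasts, eBayes with trend) was run on log2(FPKM + 1) of the 11354 genes that averaged 1 FPKM or more, all 5 groups sharing 1 fit without a block, since the study used none. Fold changes are on this scale and understate those of low genes. Benjamini-Hochberg adjustment ran over all tested genes of a comparison, and 0.05 was the threshold. Mice are separate animals. In simulated data, 46% of rises of log2 1 and 96% of rises of log2 2 were called at day 45 among 11354 genes. Only 200 genes were changed there, with independent noise, while 26.7% of genes were called at day 45 in the real data. These rates need not hold for the real data, and none is given here for decreases.

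The 8 genes and all lists were chosen with earlier results of these data known. Named besides them are, for each pathway list, up to 3 rises and 3 falls called at day 45, called genes of the clock, fasting and feeding lists, and the 3 genes most like each member. Some genes that this rule names are not reported here. Rxra, Klb, Arntl, Cd36, the Acot relatives and the Cyp4a genes were named after their values were seen. Alternatives were another pseudocount, filter, centring, spread, row choice and fit, each library left out, and terms for what set libraries apart, the last chosen after seeing the data. Locations are those of the FPKM file and GENCODE vM1. Tables and figures used Python 3.11.15, numpy 2.4.6, pandas 2.3.3 and matplotlib 3.10.9.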

Additional observations from a re-analysis of the deposited data

Results flagged for a closer look

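Ehhadh in the knockouts and at day 45 after Cre was singled out because its change against day 0 differed between these groups. The difference was −1.52 on the log2 scale (SE 0.30, limma adjusted p = 0.0126), with 3 of 3 knockouts below 3 of 3 day 45 mice, an order that 20.6% of all tested genes had, Cpt1a among them. It was −0.78 with knockout replicate C as the only knockout. No group holds 4 or more mice, so no single mouse was tested against the rest of its group.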

How the results depend on the processing

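All 7 called values of the 8 genes stayed decreases in 187 of 187 repeats and stayed past the threshold in 160. Many of these repeats could not change the sign. Leaving out a library of another group, or changing the filter or the spread, keeps the estimate as it was. The fits of day 100 and of day 200 alone are also those without the other late mouse, so they count double. Leaving out each library gave 0 to 1 called genes at day 21, 0 to 2 at day 45, 0 to 5 at days 100 and 200, 3 to 4 in the knockouts, 0 between days 45 and 21 and 0 to 5 between the knockouts and day 45. The 5 between the knockouts and day 45 came without knockout replicate C, where 37.5% of all genes were called lower and 14.6% higher. Top counts for day 21, day 45 and the late mice arose in that fit as well. Knockout replicate C is no part of these comparisons and enters only through the shared spread. Its removal left 5.46% (day 21), 6.18% (day 45) and 5.94% (late mice) of all genes called lower. With all libraries it was 1.42%, 2.99% and 3.21%. The shares called higher were 12.6%, 32.8% and 39%, against 6.2%, 23.7% and 28.4%. A 4 in the knockouts came without knockout replicate C (30.7% of all genes lower) and without knockout replicate B (4.89%). For days 100 and 200 the number called, with the share of all genes called lower in brackets, was 1 with no filter (2.43%), 1 with a minimum of 5 FPKM (3.77%), 5 with centring on the median (8.75%), 5 with only the compared groups (4.34%), 4 without libraries with Y-linked transcripts (5.68%), 1 with day 0 replicate A alone (1.07%), 4 with centring by transcript length (10.4%), 1 for day 100 alone (2.15%) and 0 for day 200 alone (0.617%), against 2 (3.21%). For the knockouts it was 2 with only the compared groups (2.46%, Acadm not called), 4 without Y-linked libraries (28.8%, Ppara also called), 1 with day 0 replicate A alone (1.29%) and 0 with knockout replicate C alone (1.88%), against 3 (14.5%). For the knockouts against day 45 it was 0 with only the compared groups (0.37%), 5 without Y-linked libraries (36.0%) and 0 with knockout replicate C alone (2.2%), against 1 (8.23%). For day 45 it was 0 with day 0 replicate A alone (0.696%), against 1 (2.99%). Why these numbers moved was not tested, beyond the fewer libraries or genes that some of the fits hold. Replicate letters are not stated to mark the same animal. Over all groups same-letter mice did not deviate together (8 of 18 pairs with r over 0.1, range −0.45 to 0.50, 4 of 12 libraries most like their own letter). For letters A, B and C, r was 0.27, 0.24 and 0.50 between day 21 and day 45, but 0.17, −0.39 and −0.36 between day 0 and day 21. With the replicate block over 12 libraries 0 genes were called at day 45 (Acadl adjusted p = 0.0725, 2.54% of all genes lower), and the number called stayed for day 21, the knockouts, day 45 against day 21 and the knockouts against day 45. Days 100 and 200 were not run with the block, since those mice carry no letter.

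Changes of sign were limited to values not called. For Fgf21 in the knockouts the log2 change was −0.069 with a pseudocount of 0.1, −0.019 with centring on the median, −0.22 with centring by length, −1.12 with knockout replicate C alone and −0.68 to 0.56 without each library. For Pdk4 at days 100 and 200 it was −0.29 with centring, −0.28 by length, −0.077 with a term for Y-linked transcripts, −0.051 without those libraries, −0.24 for day 200 alone and −0.24 to 0.33 without each library, and at day 45 it was 0.10 without Y-linked libraries, 0.33 with day 0 replicate A alone and −0.30 to 0.24. For Cpt1a it was −0.085 with centring and −0.12 by length at day 45, and between days 45 and 21 −0.17, −0.15 and −0.18 to 0.13. For Ppara at day 45 it was 0.23 without Y-linked libraries, 0.20 with day 0 replicate A alone and −0.18 to 0.14 without each library. With knockout replicate C alone it was 0.012 for Ppara against day 0, and against day 45 it was 0.067 for Ppara, 0.032 for Acadm and −0.19 for Fgf21. Acot1 in the knockouts against day 45 gave 0.051 with centring and −0.70 to 0.29 without each library, and between days 45 and 21 the ranges were −0.016 to 0.97 for Acot1, −0.094 to 0.62 for Fgf21 and −0.13 to 0.12 for Acadm.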
